A study of Mus musculus with 50 samples.

Results

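The 47 genes described here encode the machinery of cell division: the kinases and cyclins that start mitosis, the chromosomal passenger complex, the spindle checkpoint, the mitotic kinesins, proteins of the centromere, proteins of the central spindle, and the condensins and other proteins that shape chromosomes. They were taken by symbol, with no threshold on a measured value, from a list drawn up with earlier results of these data known. Rows of the table whose RefSeq transcript belongs to 1 of the symbols were taken, identical rows of a gene were counted once and distinct rows were summed. All 47 were found among the 19455 genes of the table. The transcripts were read by 3′ end poly(A) RNA-seq in KH2 cells, an embryonic stem cell line of the mouse (C57BL/6 x 129/Sv), kept in serum with LIF. The groups were Triple_KO, in which Ythdf1, Ythdf2 and Ythdf3 are knocked out, Ythdf1_KO, Ythdf2_KO and Ythdf3_KO, in which 1 of them is, and WT. All 5 genotypes were exposed to 5 µM actinomycin D, an inhibitor of transcription, and collected at 0, 4 and 8 h, so that what is left of a transcript at 8 h relative to 0 h reports on its loss. The series asks whether the 3 proteins, readers of the mRNA modification m6A, compensate for each other. Replicates A and B of a genotype together gave 4 libraries for the 0 h and the 8 h sample and 2 for the 4 h sample. The labels give neither the edited part of each gene nor the number of clones. Whether A and B came from separate cultures is not stated in them, so p-values measure the spread between these samples, which may be technical.

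Cells enter mitosis when cyclin B and the kinase Cdk1 are switched on by Cdc25 phosphatases, and Plk1 and the Aurora kinases then build the spindle. The checkpoint holds the anaphase-promoting complex, with its activator Cdc20, until every centromere is attached, after which securin and cyclin B are destroyed and separase cuts the cohesin rings. Most of these genes are transcribed late in the cell cycle, through promoters that carry CHR and CCAAT elements, and embryonic stem cells divide fast.

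Library totals ran from 796921 to 2341410 reads with a median of 1364120. Values are FPM, fragments scaled to the library total as in RPM, with no correction for length, and 1 read was worth 0.427 to 1.25 FPM. Reads of Ythdf1, Ythdf2 and Ythdf3 remained in the knockouts at 0 h. Ythdf2 had 28.9 to 38.9 FPM in Ythdf2_KO and 71.8 to 97.3 FPM in Triple_KO, against 40.5 to 58.6 FPM in WT. Ythdf1 had 51.1 to 64.9 FPM in Ythdf1_KO and 39.5 to 48.1 FPM in Triple_KO, against 50.7 to 67.7 FPM in WT, and Ythdf3 overlapped WT in both knockouts. An edit elsewhere in a gene need not remove its 3′ end reads, so these check neither the knockouts nor the labels. Markers of pluripotent cells were present in all 20 libraries of 0 h (Pou5f1 had a median of 788 FPM), except that Nanog was read at 0 to 3.38 FPM. The fibroblast marker Lum was at 0 in 20 of 20 libraries of 0 h and the trophoblast marker Elf5 in 19. Other genes of those marker lists were read in all 20, among them Fn1 (138 to 247 FPM) and Acta2 (55.6 to 141 FPM) of the fibroblast list and Krt8 (33.7 to 161 FPM) and Lama1 (19.7 to 50.6 FPM) of the endoderm and trophoblast list.

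Promoters show what many of these genes share beyond their function, and 5 windows are printed because each holds a match to the CHR letters near a gene described below. RefSeq promoters of GRCm38.p6, from 250 bases before to 50 after the start of transcription, were held for 40 of the 47 genes in 43 windows (not for Aurkb, Ccna2, Cdc25c, Incenp, Kif20a, Smc4 and Tpx2). The CHR letters TTTGAA or TTCGAA, searched on both strands, stood in 34 of 43 windows (79.1%), against 19.2% of all 32851 promoter windows. The letters CCAAT, searched on both strands, also stood in 34 of 43 windows (79.1%), against 37.4% of all windows, and both stood together in 31 of 43 (72.1%), against 7.53%. The E2F-like letters TTTCCCGC or TTTGGCGC stood in 3 of 43 windows (6.98%), against 1.56% of all. That share is also above that of all windows, but it rests on 3 windows. Plk1 (chr7:122159454-122159481, plus strand), Cenpa (chr5:30666891-30666918, plus strand), Smc2 (chr4:52439236-52439263, plus strand), Aurka (chr2:172370522-172370549, minus strand) and Cdc20 (chr4:118437345-118437372, minus strand) are given 5′ to 3′ on the gene's strand, with the CHR letters, or their reverse complement in Smc2, in capitals.
Plk1: ccagcgccgcgTTTGAAttcggggagga
Cenpa: gcgggtgatttTTTGAActgctggcgac
Smc2: tcgcgccgaaaTTCAAAggaacagttcc
Aurka: aaaggagaaccTTTGAAttgtaacggct
Cdc20: gacagttgggtTTTGAAggagccaatga
Smc2 held a further match to the CHR letters at -145 from the start of transcription, which is not printed. The window of Birc5 held neither set of letters, and that of Ccnb1 held CCAAT but no CHR letters. A match is a description of these letters in this window only.

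In WT cells at 0 h the mean levels ran from 10.9 ± 2.04 FPM for Kif18a to 242 ± 14.3 FPM for Birc5 (SD, n = 4 libraries), which sets the number of reads behind each value: 14 to 20 for Kif18a and 270 to 416 for Birc5. Cdk1, the kinase that drives mitosis, was the exception, with 0.617, 0.845, 1.18 and 2.10 FPM in the 4 WT libraries, or 1 to 3 reads. In Triple_KO it had 0, 0.554, 1.62 and 0.963 FPM at 0 h. The table thus held almost no reads for Cdk1 in any group, and a library at 0 allows up to 1.28 to 3.76 FPM (3 reads, depending on the library's total, counting error only). Cdk1 did not pass the filter of 5 FPM in at least 2 replicate means, and the other 46 genes were tested.

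After 8 h of actinomycin D, WT cells had lost mitotic transcripts very unevenly. Plk1, the Polo kinase that drives spindle assembly and mitotic exit, was down to 10.5% of its level, close to the fastest losses in the whole table, and Kif20b and Kif18a, kinesins of cytokinesis and chromosome alignment, to 12.9% and 19.3%. Aurora A (Aurka), which matures the centrosomes, had 21.4% left, and Incenp, the scaffold of the passenger complex, 23.0%. At the other end Ccnb2, the second cyclin B, had 84.0% left, the condensin subunit Ncapd2 83.1%, Cdc25b 81.9%, securin (Pttg1) 79.7% and the passenger subunit Birc5 71.0% (percentages on the FPM + 1 scale). In limma, with Benjamini-Hochberg adjustment at 0.05 over all 9078 genes, 40 of 46 mitosis genes fell at 8 h and 0 rose, against 55.2% and 1.73% of all genes. Their median log2 change was -0.97 and that of all genes -0.81, and 28 of 46 lay below the median of all genes.

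Plk1 had 56.1, 53.2, 58.3 and 46.1 FPM in the WT libraries at 0 h, 29.3 and 26.3 FPM at 4 h, and 2.28, 5.02, 5.06 and 7.92 FPM at 8 h. The 3 times did not overlap, and at 8 h the gene rested on 2 to 9 reads. Its log2 change at 8 h was -3.25 ± 0.27 (SE, n = 2 replicates, adjusted p = 1.68e-16), lower than all but 0.474% of genes. Aurka had 93.1, 74.4, 107 and 83.9 FPM at 0 h, 37.0 and 32.7 FPM at 4 h, and 18.3, 20.1, 17.7 and 16.7 FPM at 8 h, a change of -2.23 ± 0.20 (adjusted p = 7.55e-15). Cyclin B1 (Ccnb1), the partner of Cdk1, had 84.5, 93.0, 88.9 and 92.3 FPM at 0 h, 39.6 and 36.7 FPM at 4 h, and 20.6, 19.1, 26.2 and 28.2 FPM at 8 h. Its change of -1.90 ± 0.18 (adjusted p = 1.52e-14) stood beside one of -0.25 ± 0.22 for Ccnb2 (adjusted p = 0.32), in which replicates A and B had opposite signs. The cyclins B1 and B2 stood at different ends of the range in WT, and the difference between them was not tested.

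**Figure D1:**
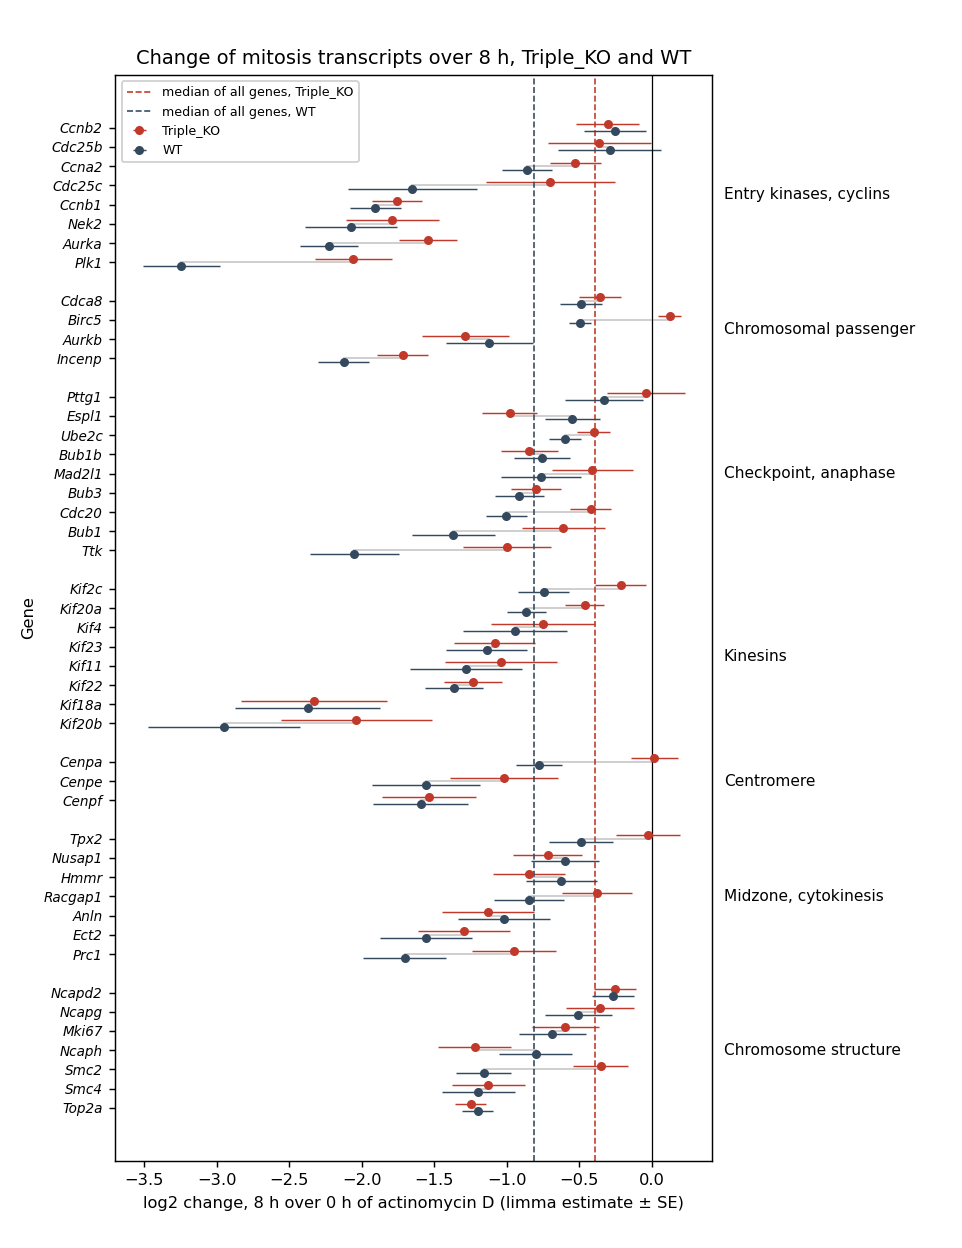
Log2 change at 8 h over 0 h of actinomycin D (x axis, limma estimate ± SE, n = 2 replicates) of 46 mitosis transcripts (y axis, grouped by role) in Triple_KO (red) and WT (dark blue), on values scaled to the library total. Plk1, Kif20b and Kif18a lie farthest left in WT and the points of Birc5 and Cenpa lie to the right of 0 in Triple_KO; dashed lines are the medians of all genes, -0.39 in Triple_KO and -0.81 in WT. In WT 12 of the 46 points lie above 0 with TMM scaling and 25 with median scaling.

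By role, the entry kinases and cyclins and the centromere proteins had the lowest medians in WT at 8 h. The counts by role stand against 55.2% of all genes called lower, and 6 of 8 or 5 of 7 is not far above that share. Of the 8 entry genes tested, 6 fell, with a median of -1.78 (-1.15 with TMM and -0.72 with median scaling): beside Plk1, Aurka and Ccnb1 these were the centrosome kinase Nek2 (-2.07), the phosphatase Cdc25c (-1.65) and cyclin A2 (Ccna2, -0.86), while Cdc25b (-0.29) and Ccnb2 did not pass. All 3 centromere genes fell, with a median of -1.55 (-0.95 and -0.53): Cenpf (-1.59 ± 0.33, adjusted p = 3.70e-05) and the kinetochore motor Cenpe (-1.55 ± 0.37, adjusted p = 0.000338) beside Cenpa (-0.78 ± 0.16, adjusted p = 3.59e-05), the centromeric histone H3. All 8 kinesins fell, with a median of -1.21 (-0.58 and -0.16), from Kif20b (-2.95 ± 0.52, adjusted p = 2.73e-06) and Kif18a (-2.37 ± 0.50, adjusted p = 5.68e-05) to Kif20a (-0.86 ± 0.13) and the microtubule depolymerase Kif2c (-0.74). Kif11, the motor that separates the spindle poles, had -1.28 ± 0.38 (adjusted p = 0.00376).

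The passenger, checkpoint, midzone and chromosome structure genes stood near the median of all genes, with medians of -0.81, -0.76, -0.85 and -0.80, which turned to 0.29, 0.33, 0.24 and 0.29 with median scaling. Incenp (-2.12 ± 0.18, adjusted p = 2.83e-16) and Aurora B (Aurkb, -1.12) fell, and so did their partners Birc5 (-0.49 ± 0.08, adjusted p = 3.03e-07) and Cdca8 (-0.49). In the checkpoint and anaphase group 8 of 9 fell on library totals, against 55.2% of all genes: the checkpoint kinases Ttk (-2.05) and Bub1 (-1.37 ± 0.29, adjusted p = 4.98e-05), Cdc20 (-1.0015 ± 0.14, adjusted p = 2.58e-08), Bub3 (-0.91), Mad2l1 (-0.76), Bub1b (-0.76), the ubiquitin-conjugating enzyme Ube2c (-0.60 ± 0.11, adjusted p = 7.72e-06) and separase (Espl1, -0.55). Pttg1, which inhibits separase, had -0.33 ± 0.27 (adjusted p = 0.299). Of the 7 midzone and cytokinesis genes 6 fell, led by the microtubule bundler Prc1 (-1.70) and the cytokinesis factor Ect2 (-1.56), and Tpx2, which activates Aurora A, had -0.49 and did not pass. Of 7 chromosome structure genes 5 fell, among them topoisomerase II (Top2a, -1.2003 ± 0.11, adjusted p = 6.69e-15), Smc4 (-1.19 ± 0.25) and the proliferation marker Mki67 (-0.68 ± 0.23, adjusted p = 0.00936), while the condensin subunits Ncapg (-0.50) and Ncapd2 (-0.27) did not pass.

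These counts rest on the scaling to the library total, since all RNA falls when transcription stops and the labels mention no added RNA standard. With TMM scaling over the listed genes, which moved the median of all genes by 0.59, 2 of 46 rose and 16 fell, and with scaling to the median gene, which moved it by 0.99, 9 rose and 8 fell. Shares of all genes called under these scalings, or under all 3, are not given, so such counts have no background beside them. Over all 46, 12 and 25 had values above 0 under these scalings. Among 16 genes followed in the WT time course and in Triple_KO against WT, Birc5 and Ube2c turned to higher under both scalings. Cdc20, Kif20a, Mki67 and Pttg1 turned to higher under median scaling, and the TMM value of Pttg1 is not given. Genes called lower under all 3 scalings numbered 8: Plk1, Aurka, Ccnb1, Nek2, Incenp, Ttk, Kif18a and Kif20b, a set named after its values were seen. The group medians of the entry genes, centromere genes and kinesins were below 0 under all 3 scalings, and those of the other 4 groups turned above 0 under median scaling.

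At 4 h the same order was partly visible. In WT 19 of 46 mitosis genes fell and 0 rose, against 27.3% and 3.61% of all genes, with medians of -0.55 and -0.37. Kif18a (-2.42 ± 0.50, adjusted p = 0.000117), Kif20b (-1.95 ± 0.52, adjusted p = 0.00274), Aurka (-1.33 ± 0.20, adjusted p = 3.19e-07) and Ccnb1 (-1.21 ± 0.18, adjusted p = 1.03e-07) led, followed by Cenpe (-1.10 ± 0.37, adjusted p = 0.0184). Plk1 had -0.92 ± 0.27 (adjusted p = 0.00554) at 4 h, so most of its change on the log2 scale came between 4 and 8 h, whereas Kif18a stood as low at 4 h as at 8 h. Kif18a had 12.3, 12.7, 8.24 and 10.5 FPM at 0 h, 1.72 and 0.798 FPM at 4 h, and 0, 3.01, 0.844 and 2.64 FPM at 8 h, which is 0 to 3 reads from 4 h on. Bub1 (-0.73), Top2a (-0.66), Mki67 (-0.68) and Kif20a (-0.38) fell as well, while Kif11 (-0.87), Cenpf (-0.60), Smc4 (-0.54), Ube2c (-0.24), Cdc20 (-0.18), Birc5 (-0.15) and Pttg1 (0.24) did not pass. Leaving out WT replicate A or B left 9 or 8 genes called at 4 h. With TMM scaling 2 rose and 7 fell and with median scaling 8 rose and 4 fell. Median scaling turned Cdc20, Kif20a, Birc5 and Ube2c to higher values. Birc5 also turned with TMM, where the values of Cdc20, Kif20a and Ube2c are not given. Shares of all genes called under these scalings, or with a replicate left out, are not given.

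The 3′ ends of the fast genes were searched for letters known from short-lived mRNAs, in the GENCODE M21 transcripts matched by RefSeq ID for all 47 genes and for 95.2% of the genes tested. TGTANATA, the letters bound by Pumilio proteins, which shorten the life of many mRNAs, stood in the 3′ UTR of 19 of 46 mitosis genes tested (41.3%), against 23.0% of all 8645 genes. The 5 windows are printed because their genes hold the letters and were among those with the largest loss in WT. Aurka and Nek2, which lost more than Ttk and Ccnb1, are not printed. The choice thus does not show how common the letters were among the largest losses. The windows run 5′ to 3′ on the gene's strand in GRCm38, with the TGTANATA letters in capitals. They lie at chr13:100779611-100779638 (Ccnb1, minus strand), chr9:83872347-83872374 (Ttk, plus strand), chr19:9872411-9872438 (Incenp, minus strand), chr2:109341658-109341685 (Kif18a, plus strand) and chr19:34975689-34975716 (Kif20b, plus strand).
Ccnb1: atgtgccgccTGTACATAggatacctac
Ttk: tgaagagctcTGTAAATAaagcgtcacc
Incenp: ggcagtactcTGTAAATAaatagattgt
Kif18a: tccattgcatTGTAAATAttgtttaaat
Kif20b: attggtatctTGTATATAattttaattc
In WT the median change at 8 h was -1.36 for the 19 mitosis genes with the letters and -0.78 for the 27 without, and over all genes it was -1.23 with and -0.70 without. The difference seen among mitosis genes was thus about as large as in the whole table. Plk1, the gene with the largest loss on the FPM + 1 scale, held neither TGTANATA nor ATTTA in its 3′ UTR of 283 nt, and neither did Ccnb2. That rank depends on the scale: WT means at 0 and 8 h were 53.4 and 5.07 FPM for Plk1, and 12.2 and 1.07 FPM for Kif20b. The letters ATTTA, the core of AU-rich elements, stood in 30 of 46 (65.2%), against 64.3% of all genes, with a median change of -1.07 with and -0.85 without. Across the 46 genes the number of TGTANATA matches had a Spearman correlation of -0.45 with the WT change and the length of the 3′ UTR one of 0.04. The length of the longest internal exon had one of -0.42, near that of TGTANATA (over all genes -0.15 and -0.23). These are given as descriptions, since genes of 1 set of libraries are not independent. The 3′ UTRs of the mitosis genes had a median length of 542 nt, against 895 nt over all genes.

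In Triple_KO the entry kinases and cyclins, the kinesins and the centromere genes again had the lowest medians at 8 h. Of 46 mitosis genes 30 fell at 8 h and 0 rose, against 25.8% and 3.45% of all genes, and their median change was -0.82, against -0.39 for all genes, with 34 of 46 below the median of all genes. Kif18a (-2.33 ± 0.50, adjusted p = 0.000212), Plk1 (-2.06 ± 0.27, adjusted p = 5.78e-09), Nek2 (-1.79 ± 0.32, adjusted p = 1.08e-05), Ccnb1 (-1.76 ± 0.18, adjusted p = 1.30e-12) and Incenp (-1.72 ± 0.18, adjusted p = 3.47e-12) fell most among those with at least 10 FPM in 1 group. A few stood near 0: Birc5 had 0.13 ± 0.08 (adjusted p = 0.236), Cenpa 0.02 ± 0.16, Tpx2 -0.03 ± 0.22 and Pttg1 -0.04 ± 0.27. By role, 5 of 8 entry genes fell (median -1.12), 6 of 8 kinesins (-1.06), 2 of 3 centromere genes (-1.02), 5 of 7 midzone genes (-0.85), 2 of 4 passenger genes (-0.82), 6 of 9 checkpoint genes (-0.61) and 4 of 7 chromosome structure genes (-0.59). Without Triple_KO replicate A or B, 13 or 17 genes were called. With TMM scaling 1 rose (Birc5) and 18 fell, with median scaling 2 rose (Birc5 and Cenpa) and 10 fell, and those 10 were called lower under all 3 scalings: the 5 just named with Kif20b, Aurka, Kif22, Cenpf and Top2a. Shares of all genes called under TMM or median scaling, or with a replicate left out, are not given. All 7 role medians stayed below 0 under both.

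**Figure D2:**
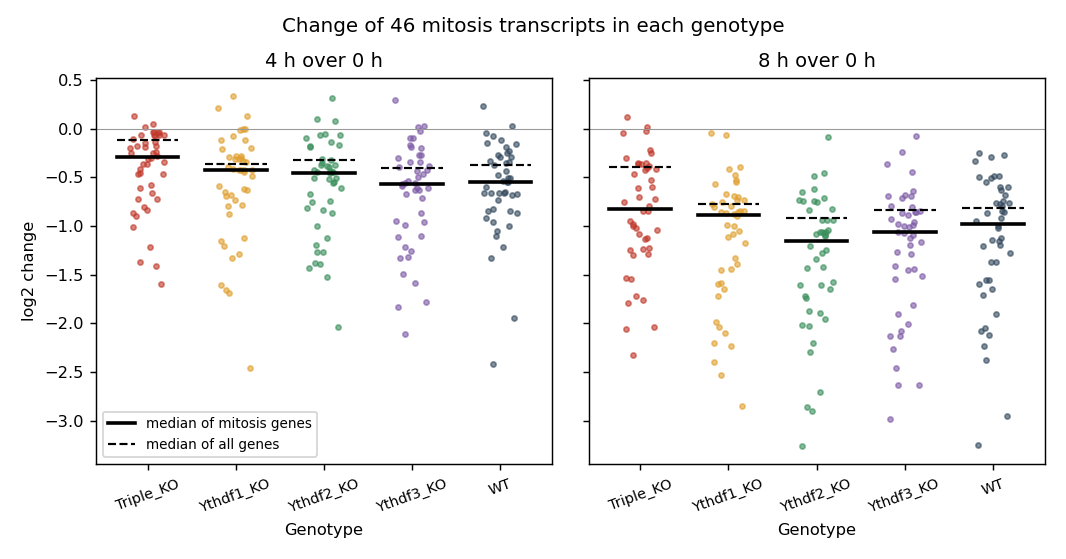
Log2 change over 0 h (y axis) at 4 h (left) and 8 h (right) of 46 mitosis transcripts (points, limma estimates) in each genotype (x axis), with the median of the mitosis genes (solid bar) and of all genes (dashed bar). The solid bar lies below the dashed bar in every genotype, and at 8 h in Triple_KO the bars stand at -0.82 and -0.39.

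The distance between the mitosis genes and the rest can be read in every genotype. At 8 h the median of the mitosis genes minus that of all genes was -0.43 for Triple_KO, -0.12 for Ythdf1_KO, -0.24 for Ythdf2_KO, -0.23 for Ythdf3_KO and -0.16 for WT. At 4 h it was -0.18 for Triple_KO and -0.17 for WT, with the single knockouts between -0.16 and -0.07. These are values without a test. The summed level of the 47 genes was 1470 ± 38.8 FPM in Triple_KO at 8 h and 1225 ± 45.1 FPM in WT, and at 0 h it was 2274 ± 40.3 FPM in Triple_KO and 2392 ± 64.1 FPM in WT (SD, n = 4 libraries). The share of the library that fell on all listed genes was also higher in Triple_KO at 8 h, with 41.1 ± 1.48% in Triple_KO and 33.2 ± 0.266% in WT, while at 0 h it was 44.3 ± 0.72% in Triple_KO and 43.3 ± 0.654% in WT, where the summed level of the 47 genes was lower in Triple_KO. As a share of the reads in listed genes, the 47 genes held 0.358% (0.351 to 0.374%) in Triple_KO and 0.369% (0.354 to 0.383%) in WT at 8 h, which overlapped, and 0.513% (0.510 to 0.515%) in Triple_KO and 0.553% (0.545 to 0.561%) in WT at 0 h, which did not.

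Scaled to library totals, the loss of 4 mitosis transcripts was smaller in Triple_KO than in WT and none passed as larger, while TMM or median scaling left none of the 4 called. They were Plk1, Smc2 (a core subunit of condensin), Cenpa and Birc5 (survivin, also known as an inhibitor of apoptosis). In the test of the difference itself, Triple_KO change minus WT change at 8 h, 4 of 46 were higher and 0 lower, against 7.22% and 0.022% of all genes, which puts the mitosis genes near the background. Their median difference was 0.22 and that of all genes 0.37, with 36 of 46 above 0 (20 with TMM and 13 with median scaling) and 29 of 46 below the median of all genes.

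Birc5 had 277, 278, 261 and 262 FPM in Triple_KO at 0 h, 312 and 279 FPM at 4 h, and 289, 297, 291 and 299 FPM at 8 h. In WT it had 234, 228, 245 and 261 FPM at 0 h, 222 and 215 FPM at 4 h, and 169, 185, 181 and 153 FPM at 8 h. Every Triple_KO library of 8 h was above every Triple_KO library of 0 h, every WT library of 8 h was below every WT library of 0 h, and the genotypes did not overlap at 8 h. The difference in change was 0.62 ± 0.11 (adjusted p = 5.63e-05, 0.46 in replicate A and 0.78 in replicate B). Cenpa had 65.6, 79.2, 62.6 and 66.0 FPM in Triple_KO at 0 h, 70.4 and 59.7 FPM at 4 h, and 68.1, 64.2, 69.5 and 74.8 FPM at 8 h. In WT it had 91.9, 75.2, 84.8 and 69.2 FPM at 0 h, 41.3 and 71.0 FPM at 4 h, and 55.9, 53.2, 30.4 and 50.2 FPM at 8 h, again with no overlap between genotypes at 8 h. Its difference was 0.80 ± 0.22 (adjusted p = 0.0172, 0.48 in A and 1.12 in B).

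Plk1 started at overlapping levels in both genotypes, with 55.8, 54.8, 58.3 and 51.1 FPM in Triple_KO at 0 h, and reached 28.6 and 25.1 FPM at 4 h and 8.79, 12.99, 15.3 and 13.5 FPM at 8 h, all above the highest WT library of 8 h (7.92 FPM). Its difference at 8 h was 1.19 ± 0.38 (adjusted p = 0.0383, 1.38 in A and 0.99 in B), and at 4 h, where the libraries of the genotypes overlapped, it was -0.093. Smc2 had 38.03, 56.5, 49.7 and 52.0 FPM in Triple_KO at 0 h, 44.8 and 50.2 FPM at 4 h, and 41.7, 39.7, 35.1 and 35.3 FPM at 8 h. In WT it had 56.1, 62.5, 57.1 and 68.5 FPM at 0 h, 45.6 and 43.9 FPM at 4 h, and 28.5, 27.1, 20.3 and 32.6 FPM at 8 h. At 8 h the genotypes did not overlap, and Triple_KO also started lower. The difference was 0.81 ± 0.27 (adjusted p = 0.0498, 0.88 in A and 0.73 in B).

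**Figure D3:**
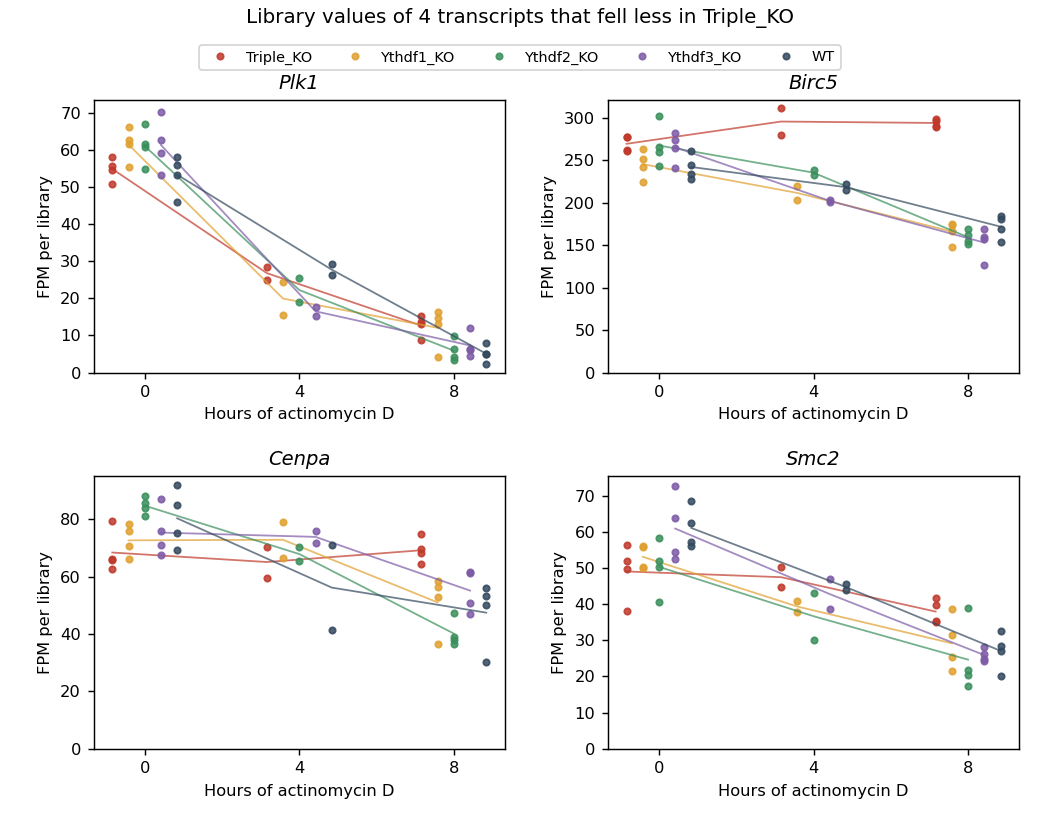
FPM per library (y axis) at 0, 4 and 8 h of actinomycin D (x axis, points of each genotype set side by side at each time) for Plk1, Birc5, Cenpa and Smc2 in Triple_KO, Ythdf1_KO, Ythdf2_KO, Ythdf3_KO and WT; lines join the means. At 8 h the 4 Triple_KO libraries of Birc5 lie at 289 to 299 FPM, against 153 to 185 FPM in WT.

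**Figure D4:**
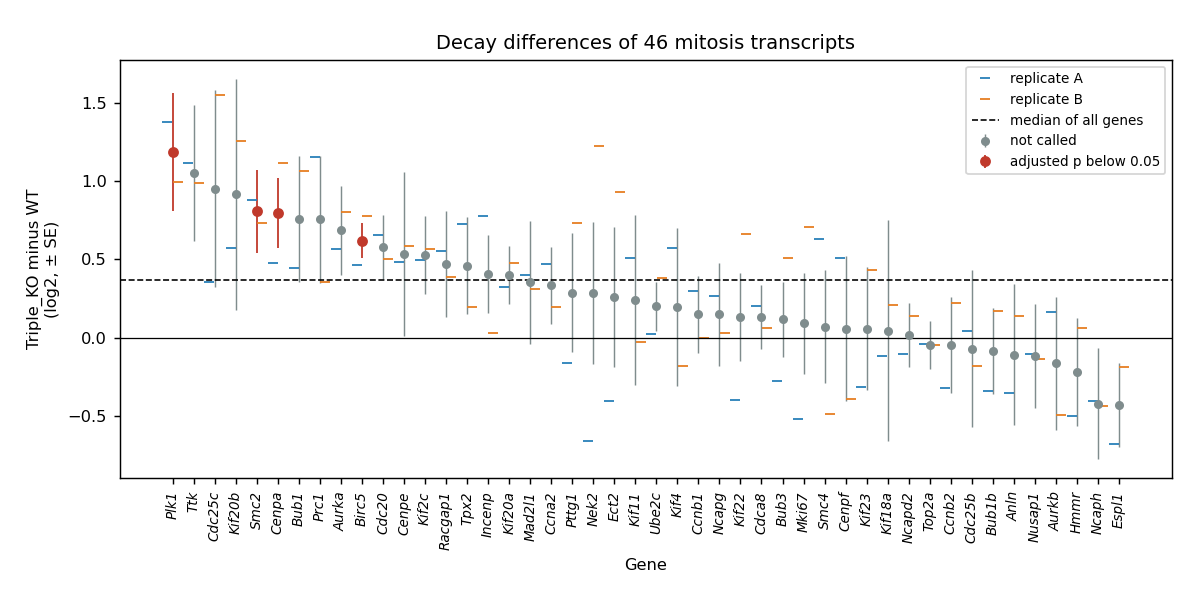
Difference in log2 change at 8 h, Triple_KO minus WT (y axis, limma estimate ± SE), of 46 mitosis transcripts in order of size (x axis), with the values of replicates A and B as dashes. The 4 called genes (red) are Plk1, Smc2, Cenpa and Birc5, and the dashed line is the median of all genes, 0.37; under TMM or median scaling none of the 4 is called.

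The other genes followed for this comparison did not pass. Cdc20 had 0.58 ± 0.20 (adjusted p = 0.068), Aurka 0.69 ± 0.28 (adjusted p = 0.142), Kif20a 0.40 ± 0.19 (adjusted p = 0.21), Bub1 0.76 ± 0.40 (adjusted p = 0.29) and Cenpe 0.53 ± 0.53 (adjusted p = 0.629). Near 0 stood Ccnb1 (0.15 ± 0.25), Ube2c (0.20 ± 0.16), Top2a (-0.05 ± 0.15), Cenpf (0.06 ± 0.46), Smc4 (0.07 ± 0.36) and Mki67 (0.09 ± 0.33), with Kif11 at 0.24 ± 0.54 and Pttg1 at 0.29 ± 0.38. Top2a had 42.1% left in Triple_KO and 43.5% left in WT. By role the median difference was 0.53 for the 3 centromere genes, 0.31 for entry genes, 0.29 for checkpoint genes, 0.27 for passenger genes, 0.26 for midzone genes, 0.22 for kinesins and 0.07 for chromosome structure genes, and with median scaling all but that of the centromere genes (0.08) were below 0.

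The 4 calls depend on how the libraries are scaled, on the filter on low values and on single replicates. Shares of all genes called under these other settings are not given, so the counts have no background beside them. With no filter 1 of the 4 was called, Birc5 (adjusted p = 0.000546 in limma). TMM scaling, which moved the median of all genes by -0.29, gave 0 calls, and median scaling, which moved it by -0.46, gave 0 higher and 2 lower calls (Espl1 at -0.95 and Top2a at -0.58). Only Birc5 kept its call with each Triple_KO and WT replicate left out in turn (0.51 to 0.73). Without Triple_KO replicate A or B 1 gene was called, and without WT replicate A or B 2 were called.

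Against the mean of the 3 single knockouts, 10 of 46 mitosis genes lost less in Triple_KO and 0 lost more, against 17% and 0.0441% of all genes, again near the background, with a median difference of 0.38 (0.05 with TMM and -0.08 with median scaling), against 0.42 for all genes. The largest among them were Cenpe (1.202 ± 0.43, adjusted p = 0.0426), Aurka (0.91 ± 0.23, adjusted p = 0.00317), Tpx2 (0.85 ± 0.26, adjusted p = 0.0139), Birc5 (0.83 ± 0.09, adjusted p = 8.72e-11) and Cenpa (0.70 ± 0.18, adjusted p = 0.0042). Aurka had 84.6, 107, 100.96 and 93.9 FPM in Triple_KO at 0 h, 60.9 and 55.2 FPM at 4 h, and 33.7, 32.5, 26.8 and 37.7 FPM at 8 h. At 8 h its libraries lay at 20.3 to 25.3 FPM in Ythdf1_KO, 10.9 to 15.4 FPM in Ythdf2_KO, 12.1 to 21.7 FPM in Ythdf3_KO and 16.7 to 20.1 FPM in WT, all below Triple_KO. Cenpe, with few reads, had 10.3, 12.3, 8.29 and 10.0 FPM in Triple_KO at 8 h, 4.05 to 12.5 FPM in Ythdf1_KO, 0 to 5.46 FPM in Ythdf2_KO and 2.801 to 6.43 FPM in Ythdf3_KO. Kif2c, Smc2, Cdc20, Ccnb1 and Kif20a were the other 5, at 0.54 to 0.69. With TMM scaling 1 was called higher (Birc5, 0.45) with median scaling 0 and with no filter on low values 5. Without Triple_KO replicate A or B 3 were called, while leaving out any replicate of a single knockout left 8 to 10. Shares of all genes called under these scalings, with no filter or with a replicate left out are not given. The comparison with the single knockouts and the one with WT share the Triple_KO libraries.

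In the single knockouts the loss of no mitosis gene passed the test of a difference from WT, and the 3 comparisons share the WT libraries. Ythdf1_KO, Ythdf2_KO and Ythdf3_KO each had 0 higher and 0 lower calls, against 0.0441% and 0% of all genes in Ythdf1_KO, 0% and 0.176% in Ythdf2_KO and 0% and 0.33% in Ythdf3_KO. At an unadjusted p under 0.05 there were 3, 4 and 2 genes. Without any difference a share of 0.05 is expected at this threshold, and the share of all genes there is not given. These counts are therefore not read as a result, and edgeR on the recovered reads also gave 0 calls in each. The median differences of the mitosis genes were -0.02 in Ythdf1_KO, -0.25 in Ythdf2_KO and -0.16 in Ythdf3_KO, and those of all genes 0.02, -0.13 and -0.08. Bub1 was the gene with the smallest unadjusted p in Ythdf1_KO (1.31 ± 0.40, adjusted p = 0.702), Ccnb1 in Ythdf2_KO (-0.79 ± 0.25, adjusted p = 0.239) and Birc5 in Ythdf3_KO (-0.30 ± 0.11, adjusted p = 0.433); these 3 were picked by their values. Bub1 had 18.8, 16.3, 16.2 and 13.5 FPM in Ythdf1_KO at 8 h, against 11.4, 8.03, 7.59 and 7.04 FPM in WT, but also a lower start, with 12.4, 17.4, 18.3 and 20.4 FPM, against 18.5, 28.7, 25.9 and 20.97 FPM. Plk1 had 0.85 ± 0.38 in Ythdf1_KO (adjusted p = 0.917), beside 1.19 in Triple_KO.

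Before actinomycin D the 46 mitosis genes tested lay slightly lower against the rest of the transcriptome in Triple_KO than in WT. In Triple_KO 4 of 46 were lower and 0 higher at 0 h, against 7.65% and 14.3% of all genes, a share of lower calls near the background, with a median difference of -0.08, against 0.07 for all genes, and 36 of 46 below the median of all genes. The 4 were Cdc25c, the phosphatase that activates Cdk1 (-0.81 ± 0.24, adjusted p = 0.00593), the checkpoint protein Mad2l1 (-0.45 ± 0.16, adjusted p = 0.0272), Tpx2 (-0.43 ± 0.16, adjusted p = 0.0341) and Smc2 (-0.32 ± 0.12, adjusted p = 0.0452). None of the 4 was called with no filter on low values (adjusted p = 0.152 to 0.323 in limma) or in a fit on all 30 replicate means (adjusted p = 0.325 to 0.467). Cdc25c had 6.75, 10.5, 11.3 and 9.15 FPM in Triple_KO and 16.7, 16.1, 17.1 and 18.2 FPM in WT, with no overlap. Mad2l1 had 25.8, 22.1, 31.9 and 22.6 FPM in Triple_KO and 30.8, 30.4, 35.9 and 44.0 FPM in WT, and Tpx2 had 30.1, 17.2, 30.8 and 31.8 FPM in Triple_KO and 29.0, 33.8, 34.1 and 51.7 FPM in WT. Both overlapped between the genotypes through a single library, and the libraries of Smc2 overlapped only at 56.5 FPM in Triple_KO and 56.1 FPM in WT. A lower level was not seen in the sum of the further mitosis genes described below. They summed to 3243 FPM (3183 to 3319 FPM) in Triple_KO and 3115 FPM (3029 to 3193 FPM) in WT at 0 h. Among them genes passed in both directions, such as Cenpm (0.79) and Ensa (-0.66).

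The condensin and chromosome structure genes were the group that lay lowest, with a median of -0.32 (-0.37 with TMM and -0.38 with median scaling) and all 7 below the median of all genes: Mki67 (-0.37, adjusted p = 0.0532), Smc4 (-0.35, adjusted p = 0.0926), Smc2, Ncapg (-0.32), Ncapd2 (-0.18), Top2a (-0.14 ± 0.07, adjusted p = 0.137) and Ncaph (0.03), of which Smc2 passed. Birc5 had 0.15 ± 0.06 (adjusted p = 0.0532). The other genes followed had Cenpf 0.22, Kif20a 0.14, Aurka 0.12, Cdc20 0.09, Plk1 0.04, Cenpe 0.03, Bub1 -0.01, Ube2c -0.04, Pttg1 -0.05, Ccnb1 -0.18 and Kif11 -0.32, and none of them passed. With TMM and with median scaling 10 genes were lower and 0 higher, the 4 named and Kif22, Cenpa, Racgap1, Top2a, Mki67 and Smc4. The share of all genes called lower under these scalings is not given, so this count has no background beside it. The same holds for the counts with a replicate left out. Without Triple_KO replicate A 0 genes were called, without Triple_KO replicate B 2, without WT replicate A 6 and without WT replicate B 4.

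**Figure D5:**
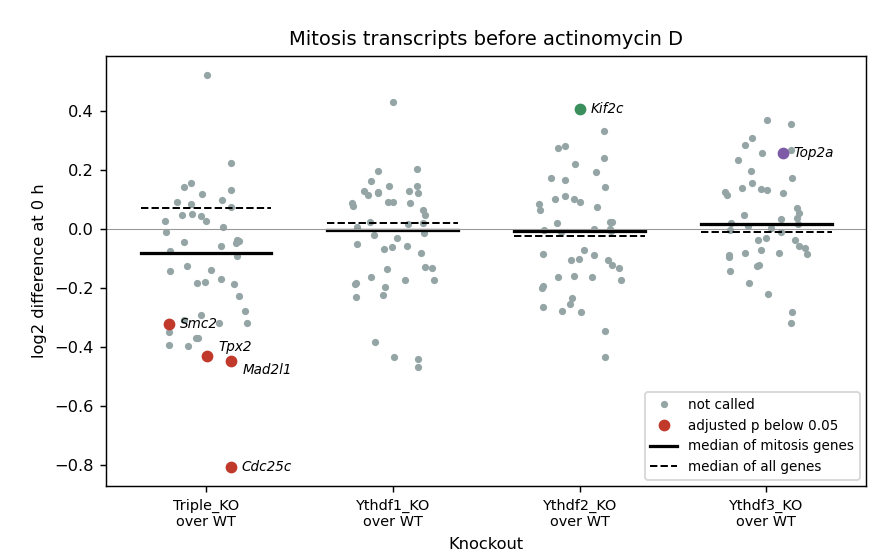
Log2 difference from WT at 0 h (y axis) of 46 mitosis transcripts (points, limma estimates) in Triple_KO, Ythdf1_KO, Ythdf2_KO and Ythdf3_KO (x axis), with the median of the mitosis genes (solid bar) and of all genes (dashed bar). Coloured points passed the test: Cdc25c, Mad2l1, Tpx2 and Smc2 below 0 in Triple_KO, Kif2c above 0 in Ythdf2_KO and Top2a above 0 in Ythdf3_KO.

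Marker lists of other cell types moved in the same comparison, in which 14.3% of all genes were called higher and 7.65% lower. The pluripotency markers summed to 2767 FPM (2720 to 2840 FPM) in Triple_KO and 3289 FPM (3185 to 3411 FPM) in WT, with 6 of 11 tested lower and 0 higher. The fibroblast list summed to 508 FPM (481 to 556 FPM) in Triple_KO and 355 FPM (333 to 380 FPM) in WT, with 6 of 9 tested higher, and the endoderm and trophoblast list to 342 FPM (329 to 356 FPM) in Triple_KO and 180 FPM (155 to 193 FPM) in WT, with 4 of 5 tested higher and 1 lower. The part of these markers in the values of the mitosis genes was not tested, and in bulk RNA fewer dividing cells and less RNA per cell cannot be told apart.

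In the single knockouts at 0 h few mitosis genes passed the test against WT. Ythdf1_KO had 0 higher and 0 lower, against 1.72% and 0.897% of all genes, with 0 calls by edgeR. It had 5 genes at an unadjusted p under 0.05, where a share of 0.05 is expected without any difference. The share of all genes at that threshold is not given. Ythdf2_KO had 1 higher and 0 lower, against 3.98% and 4.22%: Kif2c (0.40 ± 0.12, adjusted p = 0.0182), with 64.1, 55.7, 67.4 and 77.3 FPM in Ythdf2_KO and 54.3, 53.2, 45.9 and 44.7 FPM in WT, which did not overlap. Its difference was 0.15 in replicate A and 0.66 in replicate B. Ythdf3_KO had 1 higher and 0 lower, against 2.47% and 1.99%: Top2a (0.26 ± 0.07, adjusted p = 0.0122), with 231, 205, 216 and 213 FPM in Ythdf3_KO and 171, 182, 162 and 212 FPM in WT, which overlapped by 1 WT library. Kif2c was not called without WT replicate B or Ythdf2_KO replicate B, nor Top2a without WT replicate A or either Ythdf3_KO replicate. With no filter on low values neither was called (adjusted p = 0.244 for Kif2c and 0.184 for Top2a in limma), nor in a fit on all 30 replicate means (0.426 and 0.599). Median scaling gave 3 calls in Ythdf2_KO and 2 in Ythdf3_KO. The marker lists moved here too: the endoderm and trophoblast list summed to 221 FPM (213 to 231 FPM) in Ythdf1_KO, 219 FPM (210.1 to 229.8 FPM) in Ythdf2_KO and 111 FPM (106 to 114 FPM) in Ythdf3_KO, against 180 FPM (155 to 193 FPM) in WT. Of its 5 tested genes 3 were higher and 1 lower in Ythdf1_KO and in Ythdf2_KO, and 0 were higher and 3 lower in Ythdf3_KO. The fibroblast list summed to 455 FPM (420.3 to 517 FPM) in Ythdf1_KO, 342 FPM (330.4 to 354 FPM) in Ythdf2_KO and 361 FPM (346 to 371 FPM) in Ythdf3_KO, against 355 FPM (333 to 380 FPM) in WT, with 2, 0 and 1 of 9 tested higher and 0 lower in each. The part of these markers in the values of Kif2c and Top2a was not tested.

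Further mitosis genes, a list of centromere, checkpoint, cohesin and other genes of which 91 were tested, showed 74 lower and 0 higher in WT at 8 h, against 55.2% and 1.73% of all genes, with a median of -1.37 (-0.30 with median scaling), against -0.97 for the 46. The largest falls were Fbxo5, an inhibitor of the anaphase-promoting complex (-2.98), and Cdca5, which protects cohesion (-2.88). Of 61 tested genes of the G1/S transition and DNA replication 53 fell and 0 rose, against the same shares, with a median of -0.90 (0.15 with median scaling), led by the clamp loader subunit Rfc3 (-3.01) and the licensing factor Cdt1 (-3.00). In Triple_KO the medians at 8 h were -0.91 for the further mitosis genes and -0.41 for the replication genes. The difference in loss, Triple_KO minus WT, was higher for 7 of 91 and lower for 0, against 7.22% and 0.022% of all genes and so near the background, with a median of 0.40 (Cdca5 1.51, Ckap5 1.25, Cdc27 1.19 and Mybl2 0.81 among them), and for the replication genes it was higher for 8 of 61 and lower for 0, with a median of 0.47 (Gins4 1.26, Chaf1b 1.16, Fen1 1.06 and Cdc25a 1.04). Mybl2, a factor of the complex that binds CHR promoters, had the smallest adjusted p of these (2.73e-05). Both medians of the difference turned to -0.06 with median scaling. These lists were chosen with earlier results of these data known, as were the 47 genes.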

How the data were processed

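The deposited table holds FPM (RPM) per transcript and library, made by the authors from 3′ end poly(A) reads, with CASAVA 1.8.2, Bowtie2 and mm10 named per the submitters' processing notes. The steps that made the counts, the annotation and the strand setting are not given in the sources used here. Of 22338 transcripts, 21729 were named through RefSeq and 120 through GENCODE, and 489 had no name. FPM steps gave whole reads for 100% of values (within 0.1 read), which fed edgeR 4.0 as an alternative. The libraries of each replicate and time gave 1 mean of log2(FPM + 1), a scale on which low genes show too small a change, for 30 means (10 at 0 h). Genes with at least 5 FPM in 2 means were tested with limma 3.58 (trend, R 4.3) and Benjamini-Hochberg adjustment at 0.05 over all genes (8697 at 0 h, 9078 over time). The scripts were tested on simulated data.

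Named genes were the up to 5 mitosis genes with the largest rise and fall past the test, with 1 sign in both replicates and at least 10 FPM, and a list of 16 followed in the WT time course and the comparison of Triple_KO with WT. Other mitosis genes are named within their role groups. The members and lists were chosen with earlier results of these data known. The number of reads limits the precision, and intervals and floors cover counting error only.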

Additional observations from a re-analysis of the deposited data

Results flagged for a closer look

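One library stood apart from the rest of its group in the values checked: Tpx2 had 17.2 FPM in Triple_KO replicate A at 0 h, against 30.1, 30.8 and 31.8 FPM in the other libraries of that group. It was 1 of 38 groups checked, and chance gives about 1 in 20. Without Triple_KO replicate A the difference of Tpx2 from WT at 0 h was -0.21 (adjusted p = 0.533 in limma), against -0.43 with it.

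The change at 8 h differed between Triple_KO and WT in the test of the difference itself for Plk1 (1.19), Smc2 (0.81), Cenpa (0.80) and Birc5 (0.62). Between Triple_KO and the mean of the single knockouts it differed for Cenpe (1.202), Aurka (0.91), Tpx2 (0.85), Birc5 (0.83), Cenpa (0.70), Kif2c (0.69), Smc2 (0.69), Cdc20 (0.61), Ccnb1 (0.56) and Kif20a (0.54). The share of reads on listed genes at 8 h moved beside them (41.1% in Triple_KO and 33.2% in WT), and its part in these differences was not tested.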

How the results depend on the processing

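Replicate numbers did not pair the samples: the correlations of the A minus B deviations ran from -0.0407 to 0.0376 over 105 pairs. The replicate block gave 5 calls among the mitosis genes in Triple_KO at 0 h, 40 and 20 in WT at 8 and 4 h, 30 in Triple_KO at 8 h, 3 for the difference in loss between Triple_KO and WT (Smc2 lost its call, adjusted p = 0.0516 in limma) and 10 against the single knockouts. With TMM scaling the calls were 3 in Ythdf2_KO and 10 in Triple_KO at 0 h, 18 and 9 in WT at 8 and 4 h, 19 in Triple_KO at 8 h, 0 for the difference from WT and 1 for that from the single knockouts. With median scaling they were at 0 h 3 for Ythdf2_KO, 2 for Ythdf3_KO and 10 for Triple_KO, 17 and 12 in WT at 8 and 4 h, 12 in Triple_KO at 8 h, and 2 and 0 for the differences. Shares of all genes are not given for calls with the replicate block or with TMM or median scaling. Nor are they given with no filter, in the fit on all 30 means or with a replicate left out. This holds here, above and below. With no filter on low values 0 genes were called at 0 h in each of Triple_KO, Ythdf2_KO and Ythdf3_KO, 1 for the difference from WT and 5 for that from the single knockouts, and a fit on all 30 means gave 0 at 0 h in these 3 genotypes. At 4 h the differences had 0 and 1 calls, and Plk1 turned to -0.093.

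Directions turned in WT at 8 h with median scaling for Cdc20 (0.12), Kif20a (0.26), Birc5 (0.64), Mki67 (0.42), Ube2c (0.53) and Pttg1 (0.75), and with TMM for Birc5 (0.18) and Ube2c (0.075). In WT at 4 h they turned with median scaling for Cdc20 (0.44), Kif20a (0.25), Birc5 (0.48) and Ube2c (0.38), and with TMM for Birc5 (0.19). The list may not be complete, as TMM values of Pttg1 at 8 h and of Cdc20 and Ube2c at 4 h are not given. Both scalings moved the median of all genes, by 0.59 and 0.99 in WT and 0.32 and 0.55 in Triple_KO at 8 h.

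Leaving out 1 replicate gave 0 to 1 calls in each single knockout and 0 to 6 in Triple_KO at 0 h, 28 to 35 and 8 to 9 in WT at 8 and 4 h, 13 to 17 in Triple_KO at 8 h, 1 to 2 for the difference from WT and 3 to 10 for that from the single knockouts, where the lone replicate is assumed to vary like the others. edgeR gave 6 and 15 calls for the 2 differences, and over all genes 1281 higher and 11 lower, against 655 and 2 in limma, and 2900 and 11, against 1541 and 4. In Triple_KO at 8 h it gave 501 higher and 3556 lower genes, against 313 and 2341. Of the other named genes' values, 744 kept their side of the threshold, 123 fell below it and 15 passed it. Whether values near 0 that did not pass kept their sign is not given. Apart from the turns named, the cause of these changes was not tested. Among the mitosis genes in WT at 8 h, Kif20b and Kif18a, at few reads, had the widest standard errors (0.52 and 0.50).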
